A study of Homo sapiens with 4 samples.

Results

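A set of 9 lncRNA genes known from cancer biology was followed in the RNA of extracellular vesicles (EVs) from PC3 cells, a human prostate cancer line derived from a bone metastasis. They are MALAT1, NEAT1, H19, PVT1, PCAT1, PCA3, SCHLAP1, HOTAIR and MEG3, well-known nuclear or prostate cancer lncRNAs, matched by Ensembl identifier in the counts. All 9 were among the 14157 lncRNA genes of a count table with 58051 gene identifiers. The vesicles were collected from untreated PC3 cells in medium with exosome-free serum, and were isolated with an exoEasy kit and qEV columns. Stranded total RNA libraries were made for 2 biological replicates, and small RNA libraries for 2 replicates, of this 1 condition, so no contrast could be tested. PC3 is 1 cell line, and no non-malignant vesicles and no RNA of the parent cells were among the libraries analysed here.

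Most mRNAs act in the cytoplasm, whereas many lncRNAs stay in the nucleus. MALAT1 accumulates in nuclear speckles, where splicing factors are stored, and NEAT1 is the scaffold of paraspeckles. HOTAIR, MEG3 and H19 are known for roles in chromatin regulation and imprinting, and H19 is also the precursor of a miRNA. PVT1 and PCAT1 lie near the MYC oncogene, PCA3 is a urine marker of prostate cancer regulated by androgen, and SCHLAP1 is linked to aggressive prostate cancer. Vesicles lack a nucleus. In RNA pooled from many vesicles, fewer vesicles that carry a transcript and fewer copies per vesicle cannot be told apart.

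The total RNA libraries held 489170 counts on genes in replicate 1 and 475942 in replicate 2, which were 2.5% and 2.16% of the reads accounted for. Counts are given as CPM, the reads of a gene per 1000000 gene counts of the library. The smallest level taken as measurable, 3 reads, was 6.13 CPM in replicate 1 and 6.30 CPM in replicate 2. Intervals are 95% Wilson intervals and cover counting error only. Of 6 epithelial and PC3 markers all 6 had a read in both replicates, led by the keratin gene KRT8 with 966 and 1088 reads. EPCAM, with 2 and 26 reads, and ITGB4, with 26 and 1, were uneven between replicates. The prostate genes KLK2, KLK3, TMPRSS2 and FOLH1 had 0 reads in both, as did the blood cell markers HBA1, HBA2, HBB and PTPRC. Of 4 markers of fibroblasts or osteoblasts, COL1A1 had 35 and 1 reads, COL1A2 had 1 and 12, and BGLAP and SPP1 had none.

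One property of the counts touches every lncRNA value, and the values of coding genes as well. The kit keeps the strand of the RNA, but the strand setting of the counting is not given in the sources used here, and lncRNA genes whose exons lie opposite protein-coding exons, 3514 of the 14157, held 91.9% ± 0.568 (SD, n = 2) of all lncRNA counts. Whether reads on MALAT1, NEAT1, other lncRNA genes or coding genes came from their own strand or the opposite one cannot be told from these counts. Their part in the values below was not tested. A count of 0 therefore says that no read was assigned to the gene, not that its transcript was lacking.

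MALAT1, NEAT1, PVT1 and SCHLAP1, 4 of the 9 genes, were found with 1 read or more in each replicate, the rule used for presence. Of all lncRNA genes 7.1% met it, and of all gene identifiers 9.63%. A minimum of 10 reads in each replicate was met by 3, namely MALAT1, NEAT1 and PVT1, and by 4.66% of lncRNA genes. MEG3 had reads in replicate 2 alone, and H19, HOTAIR, PCA3 and PCAT1 had 0 reads in both. The 9 genes together had 578 reads in replicate 1 and 462 in replicate 2. This was 0.826% (0.762 to 0.896%) and 0.639% (0.583 to 0.699%) of the counts on lncRNA genes. MALAT1 and NEAT1 held 93.8% ± 1.38 (SD, n = 2) of these reads.

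**Figure D1:**
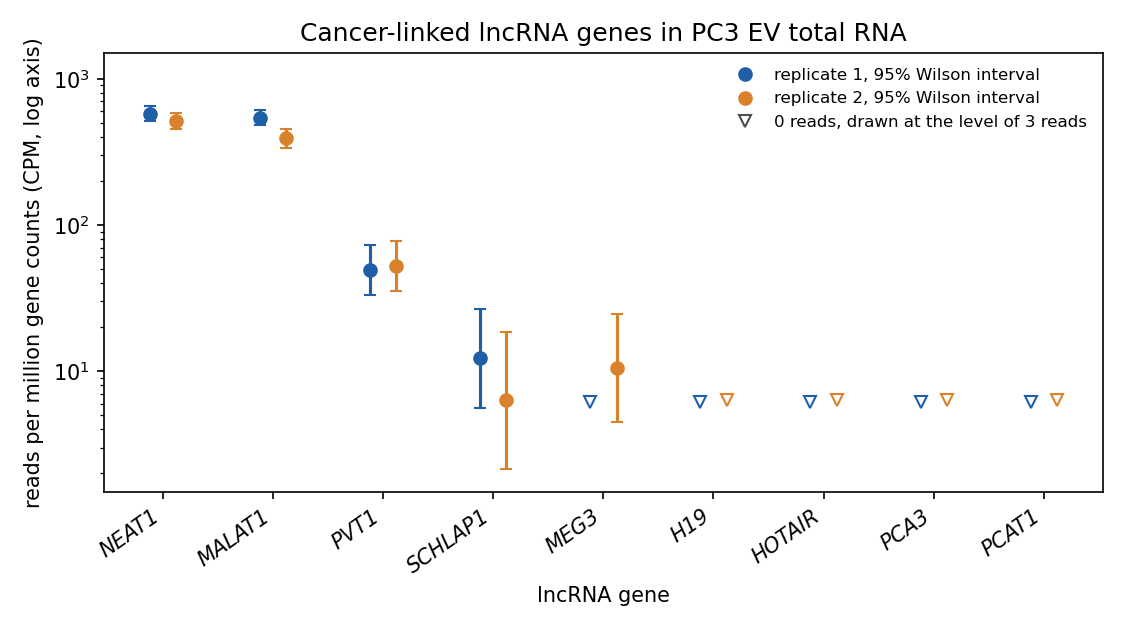
CPM (log axis) of each of the 9 lncRNA genes in replicates 1 and 2, with 95% Wilson intervals as bars; open triangles stand for 0 reads and are drawn at the level of 3 reads. NEAT1 and MALAT1 lie between 391 and 579 CPM, PVT1 near 50.8, and SCHLAP1 and MEG3 close to the level of 3 reads.

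NEAT1 (ENSG00000245532) occupies positions 65422774 to 65445540 of chromosome 11 (GRCh38, plus strand). It had 283 reads in replicate 1 and 243 in replicate 2, which were 579 CPM (515 to 650) and 511 CPM (450 to 579). The replicates lay close together, with overlapping intervals, and the mean of 545 CPM ± 48.1 (SD, n = 2) was the highest of the 9. The 3 other genes of the table with exons inside it, all short RNA features on the same strand, had 0 reads in both replicates. A read lying in them also fits NEAT1 and would be set aside as ambiguous, so these zeros say little about them. No annotated exon lies opposite NEAT1.

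MALAT1 (ENSG00000251562) lies downstream of NEAT1 on the same strand of chromosome 11, from 65497640 to 65508073. It had 265 reads in replicate 1 and 186 in replicate 2, which were 542 CPM (480 to 611) and 391 CPM (339 to 451). Replicate 1 was higher by 1.39-fold and the intervals did not overlap, so these libraries differed by more than counting error. For scale, the 660 lncRNA genes that met the minimum of 10 reads in each library had a median fold of 1.53 between replicates. Of them, 59.2% differed at least as much as MALAT1. But MALAT1 ranked 45 of these 660 by mean CPM, so most of them had fewer reads and more counting error. Whether its spread was unusual for genes of its own depth was not tested. MALAT1 had a mean of 466 CPM ± 107 (SD, n = 2) and was below NEAT1 within each replicate. The intervals of MALAT1 and NEAT1 overlapped in both replicates, though only just in replicate 2, so their order in CPM was not resolved.

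MALAT1 is unusual in that its main transcript is not ended by a poly(A) tail. RNase P cuts it behind an encoded A-rich tract, and the downstream piece becomes a small tRNA-like RNA. The annotation places a small RNA of 57 bases (ENSG00000274072) within MALAT1, 1900 bases before the annotated end of the gene. The sequence below, at chr11:65506017-65506173 of GRCh38 on the plus strand, shows this small RNA in capitals behind the 100 bases before it, because a read lying in the capitals belongs to both genes. Of the last 30 bases in lower case 18 are A.
MALAT1 3′ region: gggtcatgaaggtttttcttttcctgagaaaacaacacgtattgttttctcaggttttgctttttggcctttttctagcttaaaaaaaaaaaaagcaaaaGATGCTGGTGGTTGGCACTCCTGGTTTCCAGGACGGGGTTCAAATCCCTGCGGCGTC
The small RNA had 0 reads in both replicates. Reads that fit more than 1 gene were set aside as ambiguous, 118736 in replicate 1 and 150525 in replicate 2 over the whole table, and those of this site cannot be counted. On the opposite strand, the lncRNA gene ENSG00000270117 shares 610 exon bases with MALAT1 and had 8 reads in each replicate. TALAM1, the antisense partner of MALAT1, shares 8121 exon bases with it in the annotation but has no row in the count table.

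SCHLAP1 (ENSG00000281131), on chromosome 2 from 180692104 to 180916939, had 6 reads in replicate 1 and 3 in replicate 2. That is 12.3 CPM (5.62 to 26.8) and 6.30 CPM (2.14 to 18.5), intervals that overlap widely and reach below the level of 3 reads. Its first exon faces the lncRNA gene ENSG00000225258 on the minus strand over 212 bases, and that gene had 58 reads in replicate 1 and 3 in replicate 2.

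PVT1 (ENSG00000249859), on chromosome 8 from 127794526 to 128187101, lay between MALAT1 and SCHLAP1. It had 24 and 25 reads, or 49.1 CPM (33.0 to 73.0) in replicate 1 and 52.5 CPM (35.6 to 77.5) in replicate 2. The replicates were alike, with a mean of 50.8 CPM ± 2.45 (SD, n = 2), and every interval of PVT1 lay below those of MALAT1 and NEAT1. Its neighbour MYC, the transcription factor gene it is often amplified with in cancer, had 526 and 349 reads. RNU4-25P, an snRNA pseudogene whose exon lies opposite 63 bases of PVT1 exon, had 12 and 0 reads, and a processed pseudogene opposite 295 bases had 0 and 4.

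MEG3 (ENSG00000214548), an imprinted gene with tumour suppressor properties, lies on chromosome 14 from 100779410 to 100861031. It had 0 reads in replicate 1 and 5 in replicate 2, the latter 10.5 CPM (4.49 to 24.6). That interval overlaps the Wilson interval of the 0 reads in replicate 1, which reaches 7.85 CPM. Many lncRNA genes behaved in this way: 701 of the 2036 with a read in either replicate (34.4%) had at least 5 reads in 1 replicate and 0 in the other. DLK1, the coding gene of the same imprinted region, had 2 and 3 reads, MEG8 had 0 and 1, and MEG9 had none.

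No read was assigned to the other 4 genes in either replicate, which at the limit of 3 reads allows a level of up to 6.13 CPM in replicate 1 and 6.30 CPM in replicate 2 for each, and by the Wilson interval up to 7.85 and 8.07 CPM. H19 (ENSG00000130600) lies on chromosome 11 from 1995166 to 2004552. Its imprinted neighbour IGF2, a growth factor gene, also had 0 reads. HOTAIR (ENSG00000228630), on chromosome 12 from 53962308 to 53974956, sits among the HOXC homeobox genes, of which HOXC10, HOXC11 and HOXC12 had 0 reads. PCA3 (ENSG00000225937), on chromosome 9 from 76691980 to 76863307, lies within PRUNE2 on the opposite strand, and PRUNE2 had 0 reads. Since 1060 exon bases are shared by PCA3 and PRUNE2, neither strand of this locus gave an assigned read. PCAT1 (ENSG00000253438), on chromosome 8 from 126556323 to 127419050, shares 1409 exon bases with LRATD2 on the opposite strand, which had 8 and 0 reads, and 848 with POU5F1B on its own strand, which had none.

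Among all 14157 lncRNA genes, NEAT1 ranked 35 and MALAT1 ranked 45 by mean CPM. PVT1 ranked 528, SCHLAP1 1422 and MEG3 1644, while the median lncRNA gene had 0 CPM, since 85.6% had no read in either replicate. The 5 highest lncRNA genes had means from 2689 to 7848 CPM. The only one with a gene name was VIM-AS1, with 1958 and 2209 reads, while the coding gene VIM had 130 and 87. The strand of these reads was not tested. All 5 have exons opposite coding exons. So had 33 of the 34 lncRNA genes above NEAT1. The 3 nearest in level to NEAT1 were WWTR1-AS1 with 549 CPM ± 151 (SD, n = 2), ENSG00000258377 with 538 CPM ± 104 and ENSG00000250186 with 552 CPM ± 293, none of them separated from NEAT1 by more than their SD.

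The picture changed among the 10222 lncRNA genes whose exons overlap no coding exon on either strand, a set chosen after the counts were seen. In that set 86 genes (0.841%) met the rule for presence. Of the 9 cancer-linked genes 7 belong to it, and 4 of these 7 were among the 86. NEAT1 ranked 2 and MALAT1 ranked 4, behind MIR663AHG with 2496 CPM ± 454 (SD, n = 2) and, for MALAT1, ENSG00000269888 with 478 CPM ± 61.1. PVT1 ranked 23. The 7 cancer-linked genes in this set held 9.96% ± 1.44 (SD, n = 2) of its counts. All 9 held 0.732% ± 0.133 of all lncRNA counts.

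**Figure D2:**
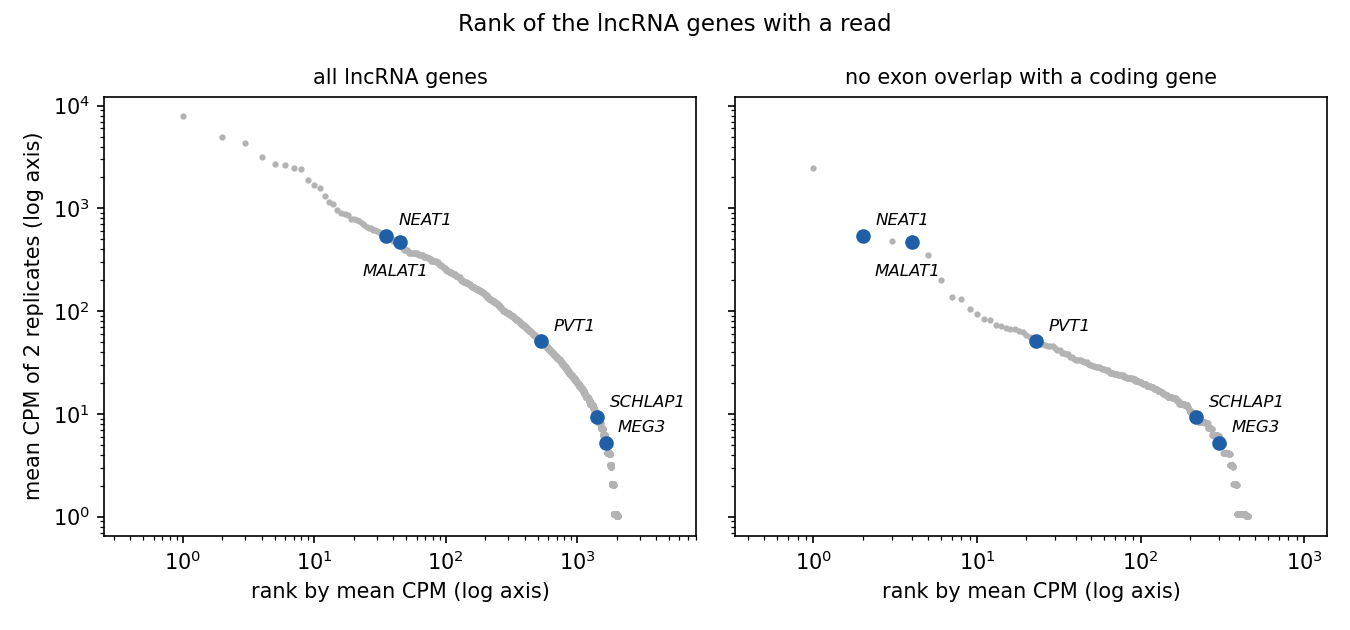
Mean CPM of 2 replicates against rank (both log axes) for every lncRNA gene with a read, over all lncRNA genes on the left and over those without exon overlap with a coding gene on the right; blue points are the cancer-linked genes. By mean CPM, not adjusted for length, NEAT1 and MALAT1 move from ranks 35 and 45 on the left to 2 and 4 on the right.

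Genes of different length can be compared only per length, and here the length chosen mattered. Per kilobase of annotated exon, MALAT1 had 44.7 CPM ± 10.2 and NEAT1 23.9 CPM ± 2.11 (SD, n = 2), and MALAT1 was higher in both replicates, by 2.04-fold and 1.67-fold. NEAT1 is made as a long form that builds paraspeckles and a short form that shares its start. With the 3524 bases of the longest of its short annotated transcripts in place of the 22743 of the long one, the NEAT1 level would be 154.5 CPM per kilobase, above MALAT1. Counts per gene do not separate these forms. SCHLAP1, which has a single annotated transcript of 1436 bases, had 6.47 CPM per kilobase ± 2.94 (SD, n = 2).

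PVT1 has 190 annotated transcripts with 25431 bases of exon in all, and its level per kilobase of exon was 1.93 CPM in replicate 1 and 2.07 CPM in replicate 2. Per kilobase of its canonical transcript, the 1 the annotation picks to represent the gene, of 2444 bases, it was 20.1 and 21.5 CPM. So PVT1 lay below SCHLAP1 by the first length and above it by the second, in both replicates each time. SCHLAP1 had only 6 and 3 reads, so this order is uncertain under either length. MYC exceeded PVT1 per kilobase in both replicates whichever length was used, by 74.7-fold ± 23.4 per exon kilobase and 11.8-fold ± 3.70 per kilobase of canonical transcript (SD, n = 2).

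**Figure D3:**
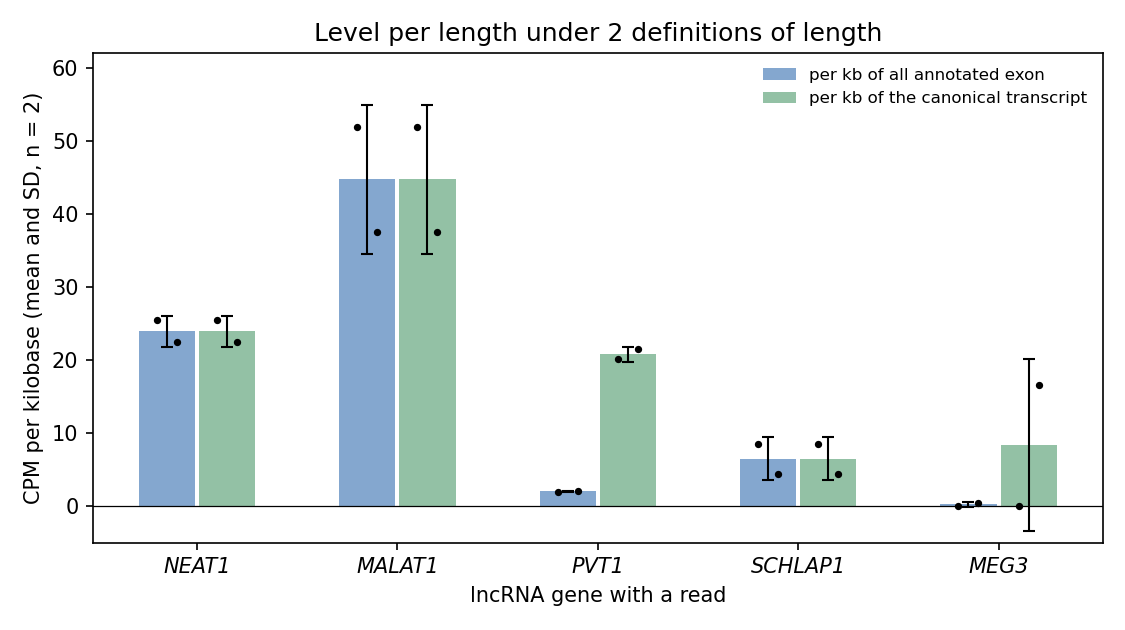
Level per kilobase of the 5 lncRNA genes with a read, in CPM per kilobase, using all annotated exon (blue) or the canonical transcript (green) as length; bars are means, error bars the SD of 2 replicates and points the replicates. MALAT1 stands above NEAT1 under both lengths, while the PVT1 points change from 1.93 and 2.07 to 20.1 and 21.5.

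Vesicle RNA was then examined for other lncRNAs, in 3 lists drawn up with the 9 genes. Of 43 listed lncRNA genes with a row of counts, 8 (18.6%) met the rule for presence, against 7.1% of all lncRNA genes. None of the 43 reached the mean CPM of MALAT1. Of the 8, 6 have exons opposite coding exons, against 17 of all 43. The 43 include TUG1 and TINCR, which the annotation lists as protein-coding. In 8 listed genes only replicate 2 had a read, and in 1 only replicate 1. The median gene was at 0 CPM in the prostate cancer and cytoplasmic lists and at 2.57 CPM in the nuclear list.

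Among 13 further lncRNAs linked to prostate cancer, 11 had 0 reads in both replicates. They include the androgen-regulated PCGEM1 and ARLNC1, and also PCAT6, PCAT14, PCAT18 and DRAIC. PRNCR1 had 2 and 1 reads. CTBP1-AS, an antisense transcript of the corepressor gene CTBP1, was the exception with 132 and 54 reads, or 270 and 114 CPM. Replicate 1 was higher by 2.38-fold, and its exons lie opposite coding exons.

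Of 16 other nuclear or chromatin lncRNAs 3 had a read in both replicates, namely OIP5-AS1 with 30 and 15, NR2F1-AS1 with 13 and 20 and KCNQ1OT1, the imprinted antisense RNA of KCNQ1, with 3 and 20. Each of these has exons opposite coding exons. FIRRE, MIR17HG and LINC-PINT had 32, 26 and 15 reads in replicate 2 and 0 in replicate 1. TUG1, which the annotation lists as protein-coding, MIAT and TERC, the RNA of telomerase, had no read.

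Of 14 cytoplasmic lncRNAs 3 had a read in both. NORAD, which binds Pumilio proteins in the cytoplasm and has no coding exon opposite, had 63 and 39 reads, or 129 and 81.9 CPM. GAS5 had 10 and 14 reads and ZFAS1 had 32 and 6, while SNHG1, SNHG6, CYTOR and EPB41L4A-AS1 had none. Per kilobase of exon MALAT1 exceeded NORAD in both replicates, by 2.18-fold and 2.47-fold. Presence was met by 3 genes in the nuclear list and 3 in the cytoplasmic list. MALAT1 and NEAT1 stood above every gene of the 3 lists in CPM in both replicates, but not per kilobase of exon. By that measure CTBP1-AS had 69.4 and 29.2 CPM, above NEAT1 in both replicates, which had 25.4 and 22.4. It was above MALAT1, with 51.9 and 37.5, in replicate 1 and below it in replicate 2.

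**Figure D4:**
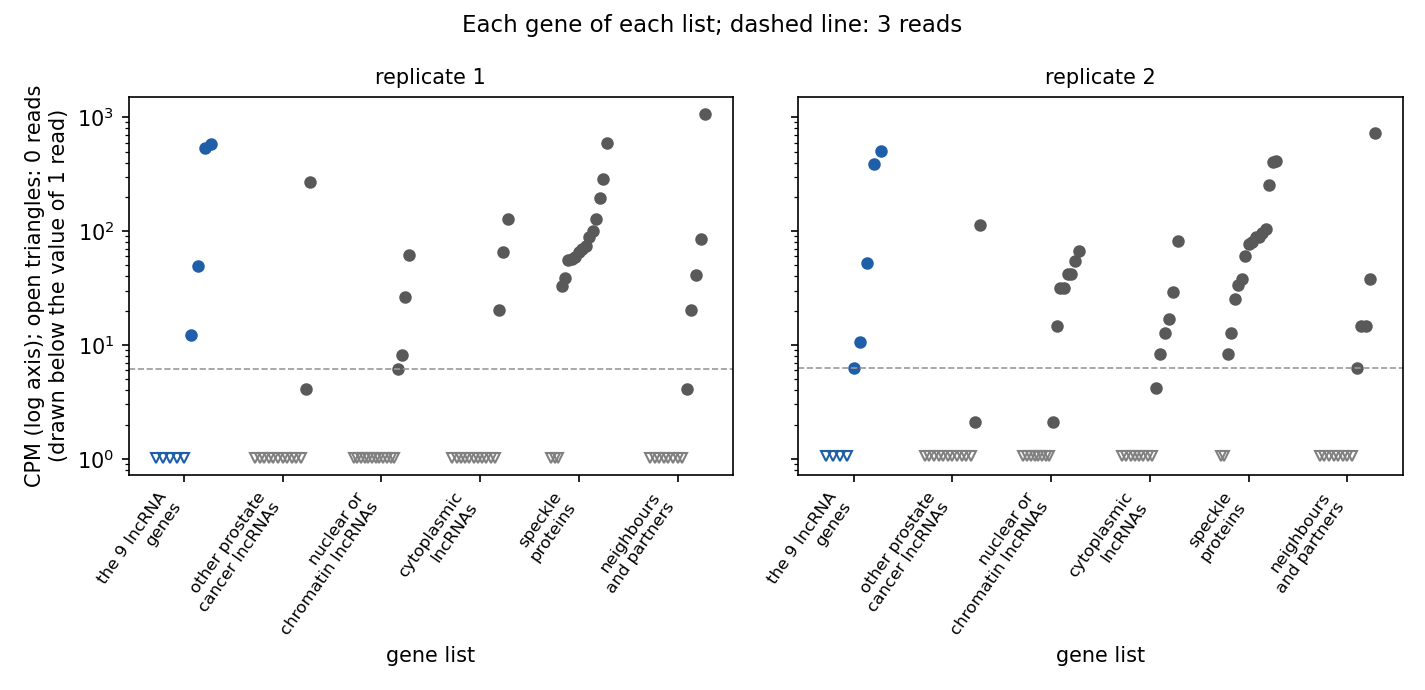
CPM (log axis) of every gene of each list in replicates 1 and 2; filled points are genes with a read, open triangles, drawn below the value of 1 read, are genes with 0 reads, and the dashed line marks 3 reads. Genes with 0 reads make up most of the prostate cancer lncRNA list, whereas 14 of 17 speckle protein genes had reads in both replicates.

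The mRNAs of proteins that assemble with MALAT1 and NEAT1 were looked up as well, with the same limit that the strand of the reads is not known. Of 17 genes for paraspeckle and speckle proteins 14 met the rule for presence, as did 21.9% of all protein-coding genes. The median gene of this list had 67.5 CPM. SRRM2, the gene of a core speckle protein, had 292 and 196 reads, 597 and 412 CPM, close to MALAT1 in both. SFPQ, a paraspeckle protein needed to stabilise NEAT1, had 140 and 191 reads, and its partners NONO and PSPC1 had 49 and 50 and 19 and 12. The splicing factor gene SRSF2 had 96 and 122 reads and the highest level per kilobase of the list, 76.0 CPM ± 14.3 (SD, n = 2). RBM14 had 0 and 4 reads, and TARDBP and TAF15 had none. Per kilobase of exon, 13 of the 14 lay below the mean of MALAT1 and 11 below that of NEAT1. SFPQ was not separated from MALAT1, with ratios of MALAT1 to SFPQ of 1.40 in replicate 1 and 0.721 in replicate 2.

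Genes of chromatin complexes that HOTAIR, MEG3 and SCHLAP1 have been linked to varied widely between the replicates or had no read. EZH2, the catalytic subunit of PRC2, had 0 and 18 reads, SUZ12 had 10 and 0, and EED had none. The demethylase gene KDM1A had 42 and 7 reads, and the SWI/SNF subunit gene SMARCB1 had none.

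Several of the lncRNA genes also carry miRNAs, and these were looked up in the small RNA libraries, which held 154185 and 113185 counts on miRNAs. Both columns of that table have the same heading, so the libraries cannot be tied to replicate numbers and are named here by the order of the columns. The annotation places 9 miRNA genes inside 4 of the lncRNA genes, with 11 mature names in the table. None of the 11 had a read in both libraries, and of all 2588 mature names 386 did (14.9%). At that share few of 11 names would have a read in both, so no difference from it is claimed. The mature sequences of the miRNAs within H19 and MEG3, from RefSeq on GRCh38.p14, are given with the seed, bases 2 to 8, in capitals, because they identify what was looked for.
hsa-miR-675-5p (H19): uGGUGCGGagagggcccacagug
hsa-miR-675-3p (H19): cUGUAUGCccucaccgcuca
hsa-miR-770-5p (MEG3): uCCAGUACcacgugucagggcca
hsa-miR-2392 (MEG3): uAGGAUGGgggugagaggug
The 4 seeds differ from each other. Both arms of miR-675, the miRNA processed from H19, had 0 reads in both libraries, as had the lncRNA itself in the total RNA. No read was counted on miR-770-5p, and miR-2392 had 0 and 2 reads. The first library held no read of miR-612, which lies within NEAT1, and the second held 1. For miR-1206, within PVT1, there was 1 read in the first and none in the second, whereas miR-1204, miR-1205, both arms of miR-1207 and miR-1208 had none. A count of 0 allows a share of up to 0.00195% of miRNA counts in the first and 0.00265% in the second, and none of the 11 names exceeded that limit in either library.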

How the data were processed

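EV RNA of PC3 cells was sequenced as total RNA and as small RNA, with 2 replicates each, described by the labels as separate replicates and by the study as biological ones. After trimming with Cutadapt and mapping to GRCh38, the authors deposited raw counts per Ensembl gene from HTSeq (named in the submitters' processing notes) and raw counts per mature miRNA from SHRiMP. Versions, strand setting and annotation release are not given in the sources used here. Total RNA files were tied to replicates by the sample descriptions, and in 1 title the vesicle number differs from that of its file.

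Counts were scaled to CPM on the sum of gene counts, leaving out the lines of reads that were set aside. Gene types, positions and exon lengths came from GENCODE release 44 on GRCh38, which matched 56948 of 58051 identifiers; its exon lengths may differ from those of the authors' release. Exon overlaps were found with bedtools 2.31.1. Shares carry 95% Wilson intervals, and means carry the SD over both replicates. A gene was taken as present with at least 1 read in both replicates. With 1 condition no test was run. The named genes are the 9, genes whose exons overlap them, miRNAs within them, the gene lists, the 5 lncRNA genes of highest mean CPM and the 3 nearest in level to the highest of the 9. The genes and lists were chosen with earlier results of these data known. Scripts were tested on simulated data. TMM factors came from edgeR 4.0.16 and size factors from DESeq2 1.42.0 in R 4.3.3, and other values from Python 3.11.15 (scipy 1.17.1, numpy 2.4.6, pandas 2.3.3, matplotlib 3.10.9). Alternatives were other read minimums, other scalings, other lengths, other sets of lncRNA genes and leaving out each replicate. PCAT2, PCAT29, PCSEAT and TALAM1 matched no row and were not analysed here. Some genes and 1 sequence are not reported here.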

Additional observations from a re-analysis of the deposited data

Results flagged for a closer look

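Identifiers without a match in GENCODE release 44 lie outside the comparisons above but carried counts. These 1103 identifiers had 3794 counts (replicate 1) and 4178 (replicate 2), on average 0.827% ± 0.0723 (SD, n = 2) of the gene counts. The 9 lncRNA genes together had 578 and 462. The larger total is a sum over 1103 identifiers, so it is not a higher level per gene. None of the 9 is among these identifiers.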

How the results depend on the processing

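No paired analysis was possible because the libraries hold a single condition, with no second group to pair. The number of the 9 lncRNA genes present stayed between 3 and 5, from 4, with at least 3 or 10 reads in both replicates, with a read in either, and with each replicate left out (4 to 5). Of the 43 listed lncRNAs, 8 became 5 with at least 10 reads in both replicates and 17 with a read in either, and it was 9 without replicate 2 and 16 without replicate 1. The share of the 9 in lncRNA counts was 0.639 to 0.826% with 1 replicate left out and 0.773% without the highest lncRNA gene. Among lncRNA genes without coding exon overlap, a set chosen after seeing the data, the 7 that belong to it held 9.96%. TMM and size factors moved the CPM of all 5 genes with a read by less than their SD. Leaving 7SL and mitochondrial genes out of the library total raised MALAT1 to 720.6 CPM and NEAT1 to 843, by construction. Ranks depended on the length and on the set of genes. Per kilobase of exon, MALAT1 ranked 541 and NEAT1 807 among all lncRNA genes, and 37 and 77 among those without coding exon overlap. By mean CPM, SCHLAP1 and MEG3 ranked 218 and 303 among those without coding exon overlap.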
